A study of Mus musculus with 3 samples.

Results

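The tumour necrosis factor (TNF) ligand and receptor genes of mouse cornea are described here in 3 RNA sequencing libraries, 1 from each group. Members were taken by gene symbol, as protein-coding rows named Tnfsf or Tnfrsf with a number, plus Tnf, Lta, Ltb, Ltbr, Fas, Fasl, Cd27, Cd40, Eda, Edar and Ngfr. This gave 39 of the 21760 genes in the table, 14 of them ligands and 25 receptors. The sham group had been cut at the site of surgery with the glands left in place. In the excision group the lacrimal gland, which makes the watery part of tears, had been removed. The third group was given PNU-282987, which activates the α7 type of nicotinic acetylcholine receptor, as eyedrops 3 times a day. The labels do not say whether those mice had also lost the gland, and give no strain, age or sex and no statement on pooling. The question of the study was the role of the α7 receptor in dry eye.

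Ligands of the TNF superfamily are mostly trimeric membrane proteins, some of which are cut from the cell surface by proteases. Their receptors recruit TRAF adaptors, which lead to NF-kB and MAP kinase signalling, and a subset carry a death domain through which caspase-dependent cell death can start. Decoy and soluble receptors bind the ligand without passing on a full signal. At the ocular surface TNF is known as an inflammatory cytokine of dry eye.

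Total gene counts were 37703843 for the sham library, 37692972 for excision and 39616004 for PNU-282987. A count of 0 allows up to 3 counts, or 0.0768 to 0.0808 CPM (counts scaled to library size, with TMM factors). Every fold below is a ratio of scaled counts in 2 libraries with its 95% counting interval. There were no replicates, so the spread between animals is unknown and no test was made. A gene was called higher or lower where its ratio reached 2-fold and its interval left out equal levels. Any 2 of the 3 comparisons share a library. Where 3 values are listed, their order is sham, excision, PNU-282987. All 6 corneal epithelial markers had counts in each library, with summed levels of 80353, 74025 and 86834 CPM. The libraries differed in tissue that a corneal sample can carry along. Lens markers summed to 407, 6.82 and 348 CPM, neutrophil markers to 24.2, 1.97 and 17.3 CPM, and goblet cell and gland markers to 2099, 3279 and 5034 CPM. S100a9 made up 18.4, 0.916 and 15.9 CPM of the neutrophil sum. Krt13 made up most of the goblet and gland sum, at 2022, 3091 and 4619 CPM. In the same list Muc5ac had 1, 11 and 2980 counts, Gp2 5, 4 and 3801, and Muc5b 1, 0 and 676. Agr2 had 49, 133 and 1817 counts and Krt19 2942, 6819 and 6825.

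**Figure D1:**
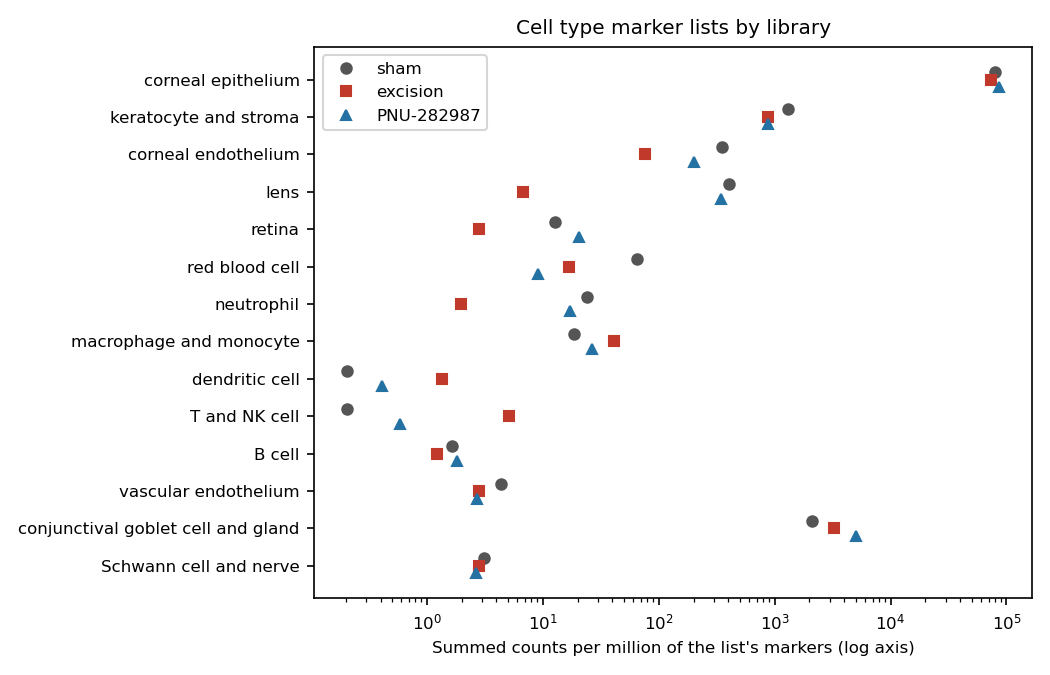
Summed level of 14 cell type marker lists in each library, in CPM on a log axis, with 1 symbol per library and no error bars since each group had 1 library. Lens markers lie at 407 CPM in sham and 6.82 CPM in excision, while T and NK cell markers lie at 0.205 CPM in sham and 5.09 CPM in excision.

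Of the 39 members, 25 reached 20 counts in at least 1 library and are called measured, 6 ligands and 19 receptors. Of these, 23 reached 20 counts in all 3 libraries, and the others were Tnfrsf4 and Tnfrsf18. Of the measured members, 17 of 25 (68%) were called in none of the comparisons, where 84.1% of all measured genes were called in none. The called members were the ligands Tnf, Tnfsf10 and Ltb and the receptors Cd40, Tnfrsf4, Tnfrsf11a, Tnfrsf12a and Tnfrsf19. In excision against sham 1 member was higher (4%, where 4.01% of all measured genes were) and 2 were lower (8%, against 5.48%). In PNU-282987 against excision 1 was higher (4%, against 3.90%) and 3 were lower (12.0%, against 5.62%). In PNU-282987 against sham 1 was higher (4%, against 2.58%) and 6 were lower (24.0%, against 4.96%). By CPM, 12 measured members were highest in sham, 8 were highest in excision and 5 under PNU-282987. In turn, 7 were lowest in sham, 8 in excision and 10 under PNU-282987. No share over all genes stands beside these counts, so they describe the members only. In bulk tissue, fewer cells of a type and less RNA per cell cannot be told apart.

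**Figure D2:**
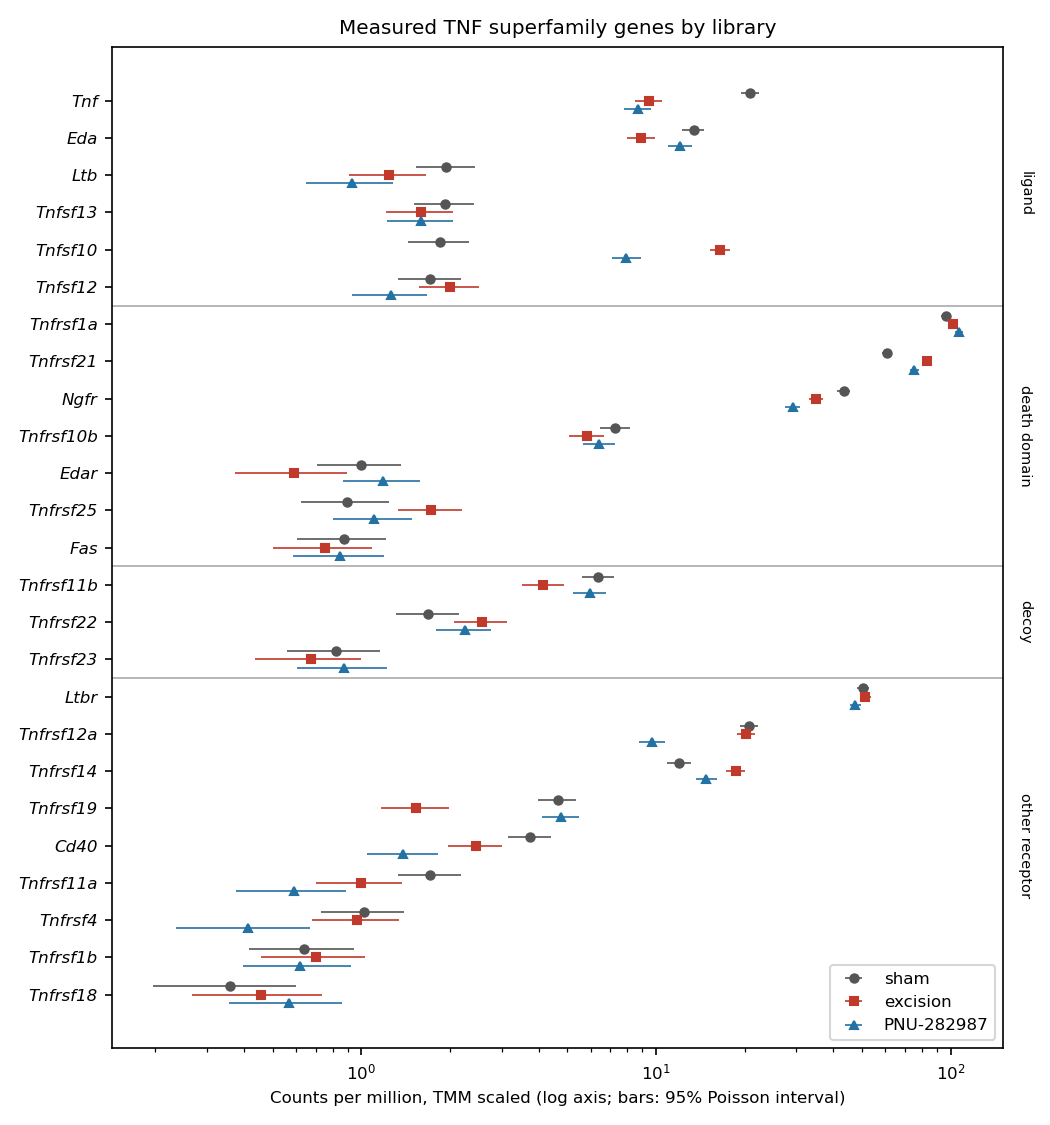
Level of the 25 measured members in each library, in CPM on a log axis, with 95% Poisson intervals that cover counting error only. Tnfsf10 is the member with the widest spread between libraries, at 1.84 CPM in sham, 16.5 CPM in excision and 7.93 CPM in PNU-282987, while Tnfrsf1a stays between 96.2 and 107 CPM.

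Among the ligands, Tnfsf10 and Tnf lay on opposite sides of sham. Tnfsf10 (gene ID 22035) encodes TRAIL, a ligand that can trigger cell death and is known to be induced by interferons. Its 72 counts in sham compare with 614 in excision and 308 under PNU-282987. Excision was thus 8.97-fold higher than sham (7.02 to 11.6). PNU-282987 lay between the other libraries, 4.30-fold higher than sham (3.32 to 5.64) and 2.09-fold lower than excision (1.82 to 2.40). Tnf (gene ID 21926), the founding inflammatory cytokine of the family, was counted 816 times in sham, 352 times in excision and 337 times in PNU-282987. Both other libraries were below sham, excision by 2.20-fold (1.94 to 2.504) and PNU-282987 by 2.41-fold (2.12 to 2.74). PNU-282987 and excision were close, with a ratio of 1.09-fold lower in PNU-282987 and an interval from 0.938 to 1.27 that includes equal levels.

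Immune cell markers also differed between these libraries. Macrophage and monocyte markers, 6 of 6 with counts in each library, summed to 18.8, 40.9 and 26.9 CPM. T and NK cell markers summed to 0.205, 5.09 and 0.592 CPM, with 3, 6 and 5 of 6 having counts, and Cd3g, Cd4 and Cd8a at 0 in sham. Tnfsf10, like these lists, was highest in excision. The sum of neutrophil markers was lower in excision and PNU-282987 than in sham, as Tnf was. That sum was 1.97 CPM in excision and 17.3 CPM in PNU-282987, where Tnf was close. Neutrophil markers with counts numbered 6, 5 and 6 of 6, with Ly6g at 0 in excision. S100a9, with 718, 34 and 617 counts, made up most of that sum in sham and PNU-282987. Camp had 74, 9 and 9 counts, Ngp 34, 6 and 2, Cd177 70, 10 and 25, and S100a8 48, 14 and 18. Red blood cell markers summed to 65.4, 16.8 and 9.19 CPM, and keratocyte and stroma markers to 1314, 870 and 875 CPM. The macrophage and monocyte sum and the T and NK cell sum were lowest in sham, where Tnf was highest. The part of these cells in the Tnfsf10 and Tnf differences was not tested.

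The make-up of the ligand reads differed between the libraries. Tnf took 49.3% of the reads of the 14 ligands in sham (exact binomial interval 46.9 to 51.7), 23.5% in excision (21.4 to 25.8) and 26.3% in PNU-282987 (23.9 to 28.8). Tnfsf10 took 4.35% (3.42 to 5.45), 41.0% (38.5 to 43.6) and 24.0% (21.7 to 26.5). All ligands together summed to 42.4, 40.3 and 33.0 CPM, and without Tnf to 21.5, 30.8 and 24.3 CPM. Reads of a longer transcript weigh more in such shares. Per kilobase of exon, the Tnf level was above that of Tnfsf10 in each library, although Tnfsf10 had more reads in excision. The exon lengths used were 1639 bases for Tnf and 5266 for Tnfsf10. The levels were 12.7 against 0.350 CPM per kilobase in sham, 5.79 against 3.14 after excision and 5.29 against 1.51 with PNU-282987.

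The 250 bases before the RefSeq start of the 2 ligands with the largest ratios are shown, Tnfsf10 on the plus strand of chr3:27316827-27317076 and Tnf on the minus strand of chr17:35202008-35202257 (GRCm38.p6). They were searched on both strands for the interferon-stimulated response element GAAANNGAAA, the gamma-activated site TTCNNNGAA and the NF-kB consensus. Neither window held a match, so all letters are in lower case, which says only that these letters are not in these windows.
Tnfsf10: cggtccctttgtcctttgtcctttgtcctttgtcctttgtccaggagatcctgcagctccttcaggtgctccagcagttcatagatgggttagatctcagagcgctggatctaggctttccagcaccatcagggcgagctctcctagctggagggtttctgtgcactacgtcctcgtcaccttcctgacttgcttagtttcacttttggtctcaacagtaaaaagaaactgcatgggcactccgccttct
Tnf: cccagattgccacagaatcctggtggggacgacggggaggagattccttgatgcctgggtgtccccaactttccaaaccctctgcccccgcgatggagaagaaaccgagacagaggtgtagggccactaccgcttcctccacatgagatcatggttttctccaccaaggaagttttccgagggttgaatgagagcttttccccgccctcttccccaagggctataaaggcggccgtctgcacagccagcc

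The remaining measured ligands differed by less. Ltb (gene ID 16994), which joins lymphotoxin alpha in a membrane complex that binds Ltbr, had 76, 46 and 36 counts. Its PNU-282987 level was 2.10-fold below sham (1.39 to 3.21). Excision lay between, 1.57-fold below sham (1.07 to 2.32). Eda, the ectodysplasin ligand of skin appendage and gland development, had 524, 330 and 469 counts and was 1.51-fold lower in excision than in sham (1.31 to 1.74). Tnfsf12, which encodes the TWEAK ligand, had 67, 74 and 49 counts, and Tnfsf13, which encodes the B cell factor APRIL, had 75, 59 and 62. The Tnfsf13 values were within counting error of each other. Tnfsf12 and Tnfsf13 are overlapped in GENCODE M21 by the read-through gene Tnfsfm13 and the antisense gene Tnfsf13os, so reads could be split among them.

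Another 8 ligands stayed under 20 counts. Lta had 11, 4 and 7 counts, Tnfsf13b, the gene of the B cell survival factor BAFF, had 9, 9 and 5, and Fasl, the killer-cell death ligand, had 0, 4 and 0. Tnfsf8, Tnfsf9, Tnfsf14, Tnfsf15 and Tnfsf18 had at most 5 counts in a library. Differences in these genes were not detectable at this depth.

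Receptors together summed to 316, 334 and 311 CPM. Reads came mainly from 4 genes, Tnfrsf1a, Tnfrsf21, Ltbr and Ngfr, which took 79.5%, 81.2% and 83.3% of the receptor reads. Per kilobase of exon, Tnfrsf1a had the highest level in sham at 37.1 CPM per kilobase, followed by Ltbr at 21.5, Tnfrsf21 at 14.8, Ngfr at 12.6, Tnfrsf12a at 10.7 and Tnfrsf14 at 8.33. The other 13 measured receptors lay at or below 2.26 CPM per kilobase, the level of Tnfrsf11b.

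None of the 7 death-domain receptors was called in any comparison, where 84.1% of all measured genes were called in none. Tnfrsf1a, the main receptor for soluble TNF, had 3756, 3778 and 4151 counts. Excision was 1.06-fold above sham (1.01 to 1.11) and PNU-282987 1.11-fold (1.06 to 1.16). These ratios were far smaller than that of Tnf, and scaling to total counts reduced the log2 ratios from 0.08 to 0.009 and from 0.15 to 0.07. Tnfrsf10b, the TRAIL receptor that signals death in mouse, had 284, 216 and 249 counts and was 1.25-fold lower in excision than in sham (1.04 to 1.499). Fas, the receptor of Fasl, had 34, 28 and 33 counts, and all 3 of its intervals included equal levels.

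Tnfrsf21, a death receptor known from neurons and immune cells, was higher in both other libraries than in sham (2380, 3080 and 2927 counts). The ratio was 1.36-fold for excision (1.29 to 1.44) and 1.24-fold for PNU-282987 (1.17 to 1.31). Ngfr, the low-affinity neurotrophin receptor, found on nerve-associated cells and on limbal epithelial cells, went the other way with 1693, 1302 and 1130 counts. Its level in PNU-282987 was 1.49-fold below sham (1.38 to 1.61). Tnfrsf25, a T cell receptor for the ligand TL1A, had 35, 64 and 43 counts and was 1.92-fold higher in excision than in sham (1.25 to 2.99). T and NK cell markers were also highest in excision. Among other receptors known from T cells, Tnfrsf4 had 40, 36 and 16 counts, Tnfrsf18 14, 17 and 22, and Cd27 7, 0 and 0. The part of T cells in the Tnfrsf25 difference was not tested. Edar, the ectodysplasin receptor, had 39, 22 and 46 counts. PNU-282987 was 1.999-fold above excision (1.18 to 3.49), just under the threshold of 2-fold.

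Decoy and soluble receptors, 3 in all, had no call either, as was the case for 84.1% of all measured genes. Tnfrsf11b encodes osteoprotegerin, a secreted receptor that binds RANK ligand and TRAIL. It had 249, 154 and 232 counts, and excision was 1.54-fold below sham (1.25 to 1.89). Tnfrsf22 and Tnfrsf23, decoy TRAIL receptors of mouse, had 66, 95 and 87 counts and 32, 25 and 34 counts. These neighbouring genes resemble each other and Tnfrsf26, and the antisense gene E230032D23Rik overlaps all 3 in GENCODE M21, so the split of reads among them is uncertain.

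Of the 9 measured receptors left, 5 were called at least once, where 84.1% of all measured genes were called in none. Tnfrsf19 (gene ID 29820), which encodes TROY, a receptor of developing nervous tissue and epithelium, had 181, 57 and 185 counts. It was 3.02-fold lower in excision than in sham (2.23 to 4.14) and 3.10-fold higher in PNU-282987 than in excision (2.29 to 4.25), while sham and PNU-282987 differed by 1.03-fold (0.833 to 1.27). The excision library also had the least lens and corneal endothelial transcript. Endothelial markers, 5 of 5 with counts in each library, summed to 354, 75.9 and 200 CPM. Lens markers had counts for 6, 5 and 6 of 6, with Mip at 0 in excision. Measured members lowest in excision numbered 8, namely Tnfrsf19, Eda, Edar, Tnfrsf11b, Tnfrsf10b, Fas, Tnfrsf23 and Tnfsf13. The intervals of Fas, Tnfrsf23 and Tnfsf13 included equal levels in each comparison. The part of lens and endothelial tissue in these genes was not tested.

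Tnfrsf12a was the opposite case, a receptor that stood apart in PNU-282987. Tnfrsf12a (gene ID 27279), the receptor for TWEAK and a gene known to be induced by growth factors and injury, had 811, 751 and 378 counts. Sham and excision differed by 1.03-fold, with an interval from 0.928 to 1.14. PNU-282987 was 2.13-fold below sham (1.89 to 2.42) and 2.08-fold below excision (1.83 to 2.36). The sum of goblet cell and gland markers was highest in that library. Counts were found for 6, 5 and 6 of 6, with Muc5b at 0 in excision. Muc5ac had 1, 11 and 2980 counts and Krt19 2942, 6819 and 6825. Whether such tissue played a part was not tested.

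Cd40, Tnfrsf11a and Tnfrsf4 were lowest in PNU-282987, at low counts. Cd40 (gene ID 21939), a receptor of antigen-presenting cells, had 146, 91 and 54 counts, with PNU-282987 2.69-fold below sham (1.95 to 3.75) and excision 1.53-fold below (1.17 to 2.004). Tnfrsf11a (gene ID 21934), which encodes RANK, the receptor known for its part in osteoclast formation, had 67, 37 and 23 counts, with PNU-282987 2.90-fold below sham (1.78 to 4.88) and excision 1.72-fold below (1.14 to 2.65). Tnfrsf4 (gene ID 22163), a receptor of activated T cells, had 40, 36 and 16 counts. PNU-282987 was 2.49-fold below sham (1.36 to 4.75) and 2.35-fold below excision (1.27 to 4.54). These are lower counts than those of Tnf or Tnfsf10, and the intervals are correspondingly wide. Dendritic cell markers, at low counts, summed to 0.205, 1.35 and 0.412 CPM and B cell markers to 1.64, 1.24 and 1.83 CPM. The macrophage, dendritic and T and NK cell sums were lowest in sham, where Cd40 and Tnfrsf4 were highest. The part of such cells in these genes was not tested.

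The other measured receptors had no call. Tnfrsf14, which encodes the lymphotoxin and LIGHT receptor HVEM, had 468, 694 and 576 counts and was 1.56-fold higher in excision than in sham (1.39 to 1.76). Ltbr, the lymphotoxin beta receptor, was nearly level at 1973, 1910 and 1847 counts. Tnfrsf1b, the receptor that prefers membrane-bound TNF, had 25, 26 and 24 counts, and Tnfrsf18, known from regulatory T cells, had 14, 17 and 22. A further 6 receptors stayed under 20 counts. Among them Tnfrsf13b had 11, 12 and 3 counts and Cd27, a receptor of T and B cells, had 7, 0 and 0, while Tnfrsf8, Tnfrsf9, Tnfrsf13c and Tnfrsf26 had at most 7 in a library.

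**Figure D3:**
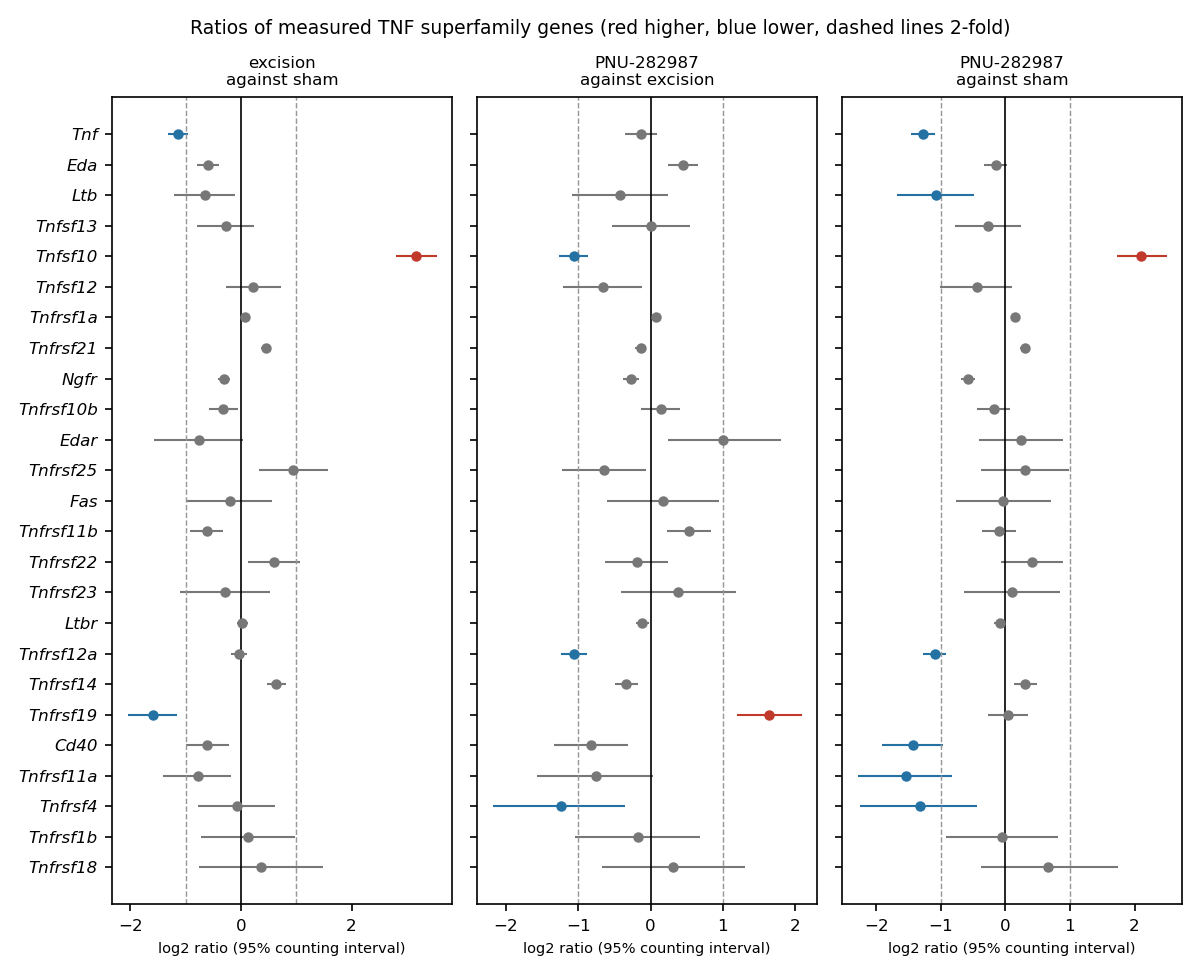
Log2 ratio of each measured member in the 3 comparisons, with 95% counting intervals. Red points are called higher, blue points called lower, grey points not called, and dashed lines mark 2-fold. Tnfsf10 is the member called in all 3 panels, and Tnfrsf19 is called in both panels that contain excision.

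Windows of Tnfrsf14 and Tnfrsf25 are shown as examples of motif matches. Both receptors had intervals above equal levels in excision against sham without a call, as did Tnfrsf1a, whose window held a gamma-activated site and is not shown. Tnfrsf21 and Tnfrsf22 had such intervals too, and no match was found for them. The other measured members with a match were Ltb, 1.57-fold lower in excision than in sham, and Fas, Tnfrsf18 and Tnfrsf1b, whose intervals included equal levels. The windows of Tnfrsf14 and Tnfrsf25 lie on the minus strand of chr4:154928078-154928327 and the plus strand of chr4:152116093-152116342 (GRCm38.p6, RefSeq). RefSeq gives 2 start sites for Tnfrsf25, and the window shown is the one with matches. Capitals mark a match of the response element on the reverse strand for Tnfrsf14, from base -64 to -55 counted from the start, and matches of the NF-kB consensus (-28 to -19) and the gamma-activated site (-16 to -8) for Tnfrsf25.
Tnfrsf14: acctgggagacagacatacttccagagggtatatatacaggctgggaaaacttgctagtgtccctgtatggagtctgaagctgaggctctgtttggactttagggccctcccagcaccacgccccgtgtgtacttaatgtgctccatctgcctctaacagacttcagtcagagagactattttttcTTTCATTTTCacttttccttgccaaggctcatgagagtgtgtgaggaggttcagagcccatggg
Tnfrsf25: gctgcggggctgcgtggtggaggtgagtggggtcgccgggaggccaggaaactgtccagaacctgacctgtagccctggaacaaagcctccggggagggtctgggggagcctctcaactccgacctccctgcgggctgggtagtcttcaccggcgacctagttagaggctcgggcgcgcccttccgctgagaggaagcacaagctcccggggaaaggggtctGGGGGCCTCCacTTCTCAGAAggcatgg

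A RefSeq window was matched by symbol for 32 of the 39 members. The response element was found in 3 of them (9.38%, where 3.46% of 27025 genes had it), Tnfrsf14, Tnfrsf1b and Tnfsf13b. The gamma-activated site, whose letters read the same on both strands, was found in 8 members (25%, against 8.13%), and the NF-kB consensus in 4 (12.5%, against 8.23%). Members with the site included Fas, Lta, Ltb and Tnfrsf1a. A match is a description of letters and not a binding site.

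Ligand counts per receptor count within a library do not depend on how libraries are scaled, and gave a view of 6 ligand and receptor pairs, chosen after the values were seen. For Tnfsf10 and its receptor Tnfrsf10b this count ratio was 0.254, 2.84 and 1.24. Excision was 11.2-fold above sham (8.22 to 15.4), and PNU-282987 was 2.30-fold below excision (1.82 to 2.91). For Tnf and Tnfrsf1a the ratio was 0.217, 0.0932 and 0.0812. It was 2.33-fold lower in excision than in sham (2.04 to 2.67) and 2.68-fold lower in PNU-282987 than in sham (2.34 to 3.07). Ltb per Ltbr was 1.98-fold lower in PNU-282987 than in sham (1.31 to 3.04). For Tnfsf12 and Tnfrsf12a the PNU-282987 value was 1.57-fold above sham (1.04 to 2.35), a pair in which the receptor had the larger difference. Eda per Edar had intervals that included equal values in all 3 comparisons.

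**Figure D4:**
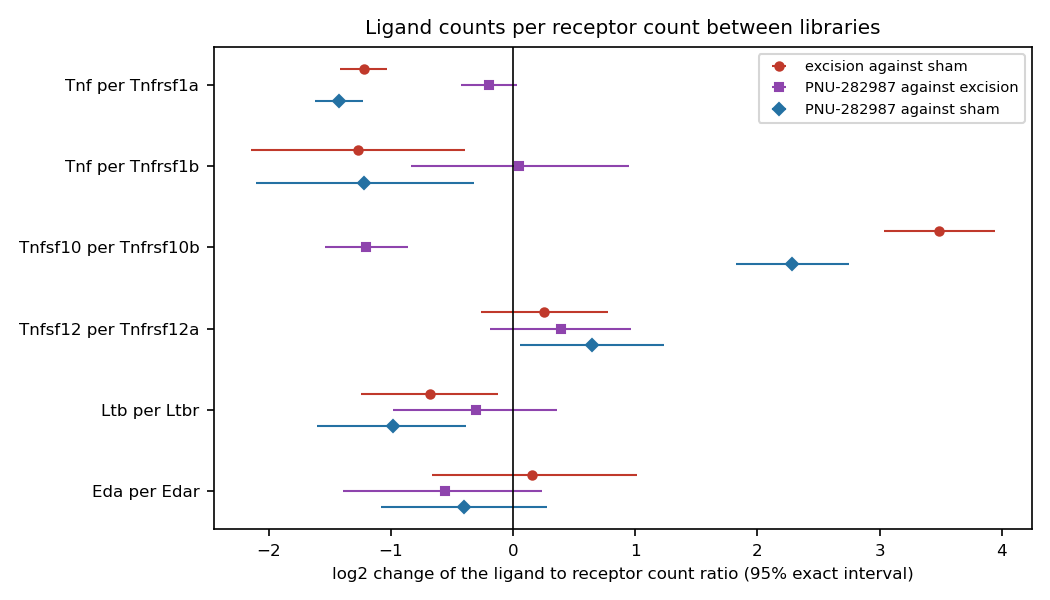
Log2 change of the ligand to receptor count ratio for 6 pairs, with 95% exact intervals and 1 symbol per comparison. Tnfsf10 per Tnfrsf10b lies farthest from 0, 11.2-fold higher in excision than in sham, and the intervals of Eda per Edar span 0.

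Below the receptors, 40 genes for adaptors, kinases, ubiquitin enzymes, death effectors and the shedding enzymes were in the table, and 39 were measured. Of these, 0 were called higher and 1 (2.56%) lower in excision against sham, where 4.01% and 5.48% of all measured genes were. In PNU-282987 against excision 1 was higher and 1 lower (2.56% each, against 3.90% and 5.62%), and in PNU-282987 against sham 0 were higher and 1 lower (2.56%, against 2.58% and 4.96%). A gap to the background of this size is 1 or 2 genes. Their median log2 ratios were -0.02, 0.06 and 0.05, where those of all measured genes were -0.003, 0.008 and 0.0001. The ligands had medians of -0.43, -0.27 and -0.35 and the receptors of -0.08, -0.14 and -0.03.

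The called pathway genes were regulators of ubiquitin and NF-kB signalling. Tnip3, which encodes a partner of the NF-kB inhibitor Tnfaip3, had 71, 12 and 132 counts. It was 5.62-fold lower in excision than in sham (3.03 to 11.4) and 10.5-fold higher in PNU-282987 than in excision (5.82 to 20.9). PNU-282987 was 1.87-fold above sham for Tnip3 (1.39 to 2.53). Lens, corneal endothelial and retina transcript was also lowest in excision. Lens and endothelial sums were lower in PNU-282987 than in sham, while retina markers summed to 12.9, 2.83 and 20.6 CPM. The part of these tissues in Tnip3 was not tested. Tnfaip3, a ubiquitin-editing enzyme that TNF itself induces, had 1520, 1083 and 717 counts. Its PNU-282987 level was 2.11-fold below sham (1.93 to 2.31). Rnf31, the catalytic subunit of the linear ubiquitin ligase, had 835, 1393 and 680 counts and was 2.14-fold lower in PNU-282987 than in excision (1.95 to 2.35). None of the 3 death effectors was called, where 84.1% of all measured genes were called in none. Casp8, the initiator caspase, had 1669, 1613 and 1630 counts, Bid had 515, 559 and 609, and Mlkl, the pore-forming protein of necroptosis, had 74, 101 and 76. Mlkl was 1.44-fold higher in excision than in sham (1.05 to 1.97) and 1.39-fold lower in PNU-282987 than in excision (1.02 to 1.90). Ripk3, a kinase of necroptosis, had 172, 231 and 128 and was 1.89-fold lower in PNU-282987 than in excision (1.51 to 2.36). Adam17, the enzyme that releases TNF from the cell surface, had 2623, 1948 and 2597 counts.

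**Figure D5:**
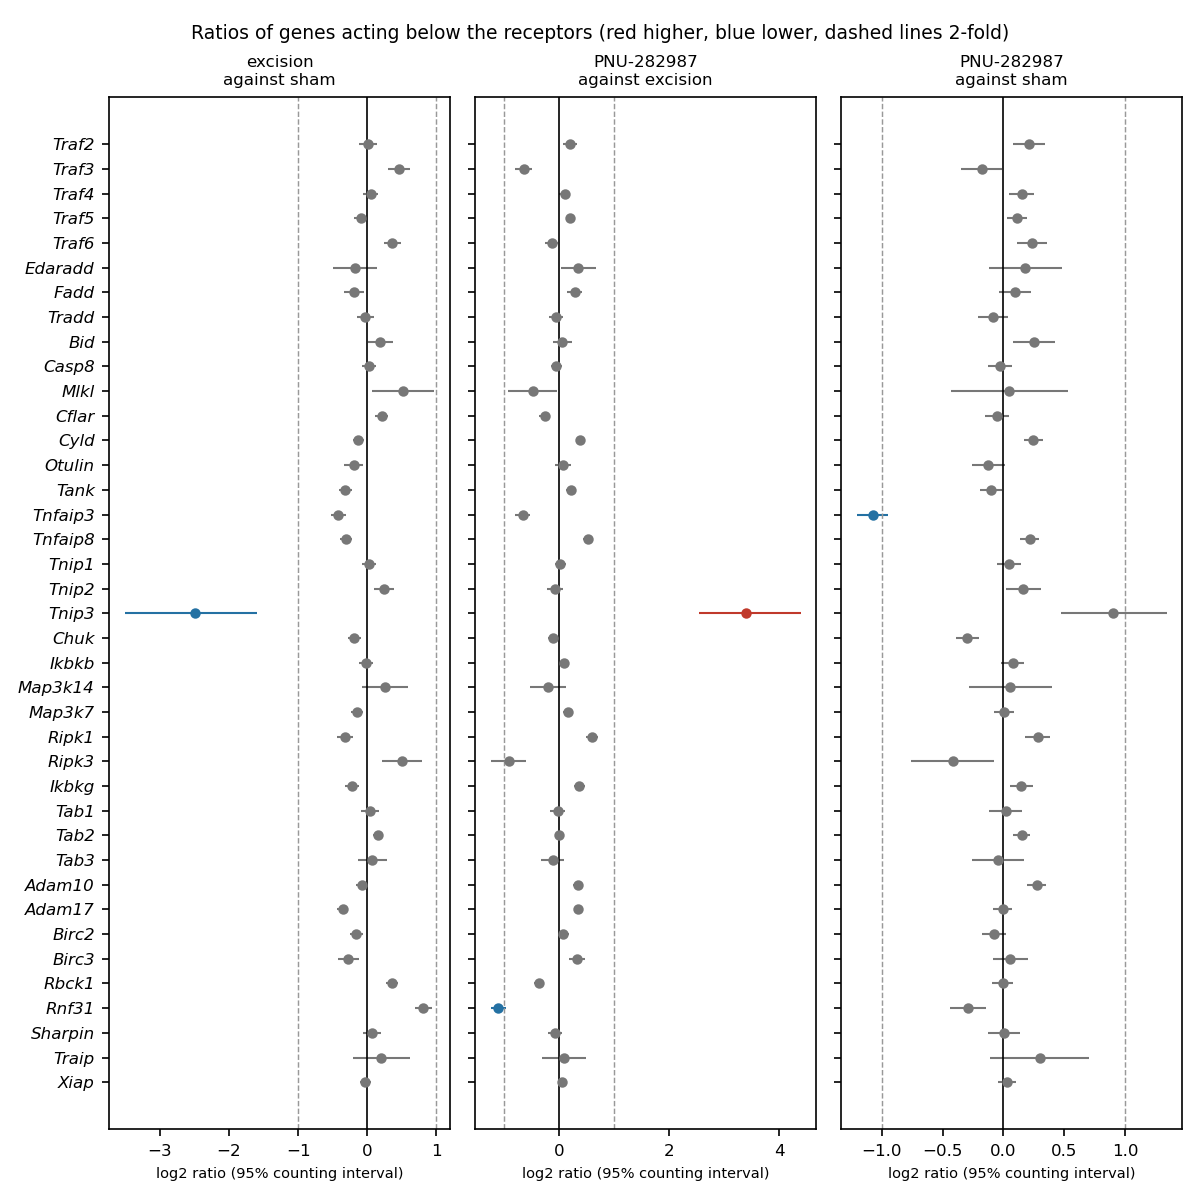
Log2 ratio of the 39 measured genes acting below the receptors or in shedding, with 95% counting intervals and the colours of the plot of member ratios. Tnip3 is the point farthest from 0, 5.62-fold lower in excision than in sham and 10.5-fold higher in PNU-282987 than in excision.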

How the data were processed

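RNA from mouse cornea was sequenced in 3 libraries, 1 per group. Per the labels' protocols, total RNA was taken with TRIzol, and libraries were built from it with a VAHTS Universal V6 kit. As the measure, the authors deposited whole-number counts of reads per gene, used as deposited. HTSeq and R 3.2.0 are named in the submitters' processing notes. Which aligner, genome build, annotation and strand setting were used is not given in the sources used here.

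Counts were scaled with TMM factors (edgeR 4.0.16, R 4.3.3). Ratios, exact conditional binomial (Clopper-Pearson) 95% intervals and plots were made in Python 3.11.15 with SciPy 1.17.1 and matplotlib 3.10.9. The 14180 genes that reached 20 counts in 1 or more libraries were kept. No ratio was given where both libraries had 3 counts or fewer, and a count of 0 was set to 3. Ratios and calls were tried on simulated counts that held counting error only. That check of the code cannot speak to the spread between animals or to differences in tissue. With no replicates, no p-values were computed. The protocols name no molecular identifiers, so reads are not independent molecules and intervals cover counting error only.

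Levels per kilobase used the union of GENCODE M21 exons, which may differ from the authors' annotation. Upstream windows are RefSeq's. Every member is accounted for. Members with at least 20 counts in a library could be named, and those called were given in full. Pathway genes were to be named where called. Ripk3, Mlkl, Bid, Casp8 and Adam17 were named after their values were seen, as were the ligand and receptor pairs chosen. The members and lists were chosen with earlier results of these data known. Alternatives were other scalings (DESeq2 1.42.0 size factors, upper quartile, totals), count minimums and a 1.5-fold threshold.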

Additional observations from a re-analysis of the deposited data

How the results depend on the processing

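All calls of the 8 called members held under the other 3 scalings and a minimum of 10 counts, and those of all but Tnfrsf4 under a minimum of 50. With a 1.5-fold threshold, more members were called in the comparisons that contain excision. There were 4 higher and 7 lower of 25 in excision against sham (16% and 28%, against 8.23% and 9.04% of all measured genes). In PNU-282987 against excision 2 were higher and 6 lower (8% and 24%, against 7.63% and 11.2%). In PNU-282987 against sham the members stayed at 1 higher and 6 lower (4% and 24%). The shares of all measured genes there rose to 5.03% and 9.72%. Pathway genes then numbered 1 of 39 higher in excision against sham (2.56%), 2 higher and 4 lower in PNU-282987 against excision (5.13% and 10.3%), and 1 higher in PNU-282987 against sham (2.56%, against 5.03% of all measured genes). DESeq2 size factors added Edar, giving 2 members higher in PNU-282987 against excision. A minimum of 10 counts or none added Tnfrsf13b as lower in PNU-282987 against excision (12 and 3 counts, 4.18-fold, 1.13 to 23.1). No minimum added Cd27, with 7, 0 and 0 counts, as lower than sham in both other libraries. With the 0 set to 3 counts it was 2.22-fold lower in excision and 2.32-fold lower in PNU-282987. The intervals of Cd27 start at 1.37 and 1.43. A minimum of 10 counts moved the ligand median to -0.59 in excision against sham and to -0.13 in PNU-282987 against excision. No minimum count moved it to -0.27 in excision against sham, and the receptor median there to -0.21. These medians rest on few genes. Scaling to total counts turned the sign of Ltbr in excision against sham, Tnfrsf19 in PNU-282987 against sham and Tnfsf13 in PNU-282987 against excision, none of them called. No paired analysis was possible because each group had 1 library, and no library could be left out. Members under 20 counts are limited by depth.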
